A study of Rattus norvegicus with 18 samples.

Results

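The 9 genes followed here belong to glutamate signalling: the metabotropic glutamate receptors Grm2, Grm3, Grm4, Grm5, Grm7 and Grm8 and the scaffold proteins Homer1, Homer2 and Homer3. Every probe that carried one of these gene symbols, or an older synonym of the same RefSeq transcript, was taken from the scanner output, whatever its value. The 9 genes had 14 probes among the 41012 distinct probes of the array, of which 35155 were detected in at least 1 brain area. Detection in an area required that the scanner called the signal of one or the other strain well above background there on 4 or more of 6 arrays. All 14 probes were above background on 6 of 6 arrays for both strains in every area, and none was saturated. Grm2, Grm4, Homer2 and Homer3 had 1 probe each. The other 5 genes had a pair of probes, called the brighter and the dimmer by their mean level over all arrays.

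The series set rats of the high ethanol preferring strain WHP against rats of the low preferring strain WLP in 3 parts of the brain: hippocampus, nucleus accumbens and prefrontal medial cortex. Both strains were alcohol-naive males kept with their brothers, and each RNA pool held equal amounts from 3 rats. A two-colour Agilent array carried a WHP pool in one dye and a WLP pool in the other, and a second array repeated each pair of pools with the dyes swapped. Each area thus had 3 pool pairs, labelled as biological replicates, on 6 arrays (n = 3), and the series had 18 arrays. The pooling hides the variation between single rats, and it is not stated if the areas were taken from the same animals.

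Metabotropic glutamate receptors are G protein-coupled receptors that tune transmission at glutamate synapses rather than carry the fast current themselves. Group I receptors, such as Grm5, sit mainly around the postsynaptic density and act through Gq, phospholipase C and calcium stores, whereas group II (Grm2 and Grm3) and group III (Grm4, Grm6, Grm7 and Grm8) act through Gi/o, lower cyclic AMP and often restrain transmitter release. Homer proteins bind the tails of group I receptors and link them to Shank scaffolds and to calcium channels of the endoplasmic reticulum. The short immediate-early form of Homer1 lacks the coiled coil of the long forms and uncouples these links.

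Median spot intensity was 78.2 to 100.4 in green (Cy3) and 133 to 186 in red (Cy5) in the first scan session, which held the nucleus accumbens and prefrontal arrays. It was 155 to 209 and 252 to 303 in the second session, which held the hippocampus alone, so that a difference in level between the hippocampus and another area cannot be told apart from the session and slides. Ratios of the dye-swapped arrays correlated, within a pool pair, at 0.57 to 0.70 over all detected probes in 6 of 9 pairs, at 0.30 in hippocampus pair 3, and not at all in nucleus accumbens pair 3 (0.044) and hippocampus pair 2 (-0.0040). Markers of striatal projection neurons, such as Drd1 and Ppp1r1b, had a mean log2 level of 11.10, 10.33 and 10.78 in the 3 nucleus accumbens pairs, 10.58, 10.90 and 10.26 in the prefrontal pairs and 8.78, 9.11 and 9.07 in the hippocampus. None of 11 differed between nucleus accumbens and prefrontal arrays, whereas 6 of 6 cortical excitatory markers were lower in the nucleus accumbens (median -1.85). The arrays labelled prefrontal medial cortex therefore carried striatal as well as cortical marker signal, and every prefrontal value below is one of the arrays so labelled.

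The probe sequences are shown for the 5 genes with a pair of probes, because what each probe reads decides whether agreement between them is informative. Each is an oligonucleotide of 60 bases as the array file gives it, 5′ to 3′, whole or as a stretch of 30 bases, with its position on build rn4. Capitals mark the 18 bases that both Grm8 probes share.
Grm5 (brighter), chr1:144476829-144476888, plus strand: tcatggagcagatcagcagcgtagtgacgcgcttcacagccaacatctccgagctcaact
Grm5 (dimmer), chr1:144461593-144476430, plus strand: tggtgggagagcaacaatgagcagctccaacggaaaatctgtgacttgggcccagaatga
Grm3 (brighter), chr4:22117749-22117808, plus strand: tacaactttctaggctgattttagtgccct
Grm3 (dimmer), chr4:20961612-20961671, plus strand: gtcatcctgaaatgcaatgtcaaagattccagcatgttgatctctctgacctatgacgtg
Grm7 (brighter), chr4:147206694-147206753, plus strand: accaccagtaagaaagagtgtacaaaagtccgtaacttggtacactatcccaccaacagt
Grm7 (dimmer), chr4:147088377-147201215, plus strand: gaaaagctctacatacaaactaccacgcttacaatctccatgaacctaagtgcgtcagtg
Grm8 (brighter), chr4:53976781-53983223, minus strand: cctaatagatCGTCTTCTACCAAGACAAca
Grm8 (dimmer), chr4:53976813-53983310, minus strand: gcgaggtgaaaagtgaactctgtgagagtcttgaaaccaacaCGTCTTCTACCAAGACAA
Homer1 (brighter), no position in the file: gcctgtgatattgaagagggttcttttcat
Homer1 (dimmer), no position in the file: aacagaagctcattgacaaactaaagtgac

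The mapped span of the dimmer Grm5 probe is 14838 bases for 60 bases of probe, that of the dimmer Grm7 probe 112839, and those of the Grm8 probes 6443 and 6498, so these 4 probes lie across at least 1 gap in the genome, as exon junctions do. The Grm5 probes lie 399 bases apart and share no run longer than 6 bases. The Grm3 probes lie 1156078 bases apart in the file's coordinates, with the brighter further along the plus strand, and the files used here do not settle whether both read the same gene model. The array file describes the brighter Grm7 and Grm8 probes as targeting splice variants (Grm7 subtype b, Grm8 subtype b). It describes the target of the dimmer Homer1 probe as the complete coding sequence of Homer, the name under which the short immediate-early form was first cloned. The isoforms read by the Homer1 probes are not settled by the files used here. The single probes of Grm2 (chr8:111838413-111838472), Grm4 (chr20:5627935-5627994), Homer2 (chr1:137828766-137828825) and Homer3 (chr16:19624630-19624689) all lie on the minus strand. A level is the log2 brightness of a probe, which depends on the probe, so levels are compared between areas and strains and never between probes.

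No member differed between WHP and WLP at an adjusted p under 0.05 in any area, in the mean of the areas or in the difference between areas. The strain test asked whether the log2 ratio of WHP over WLP departed from 0 over the 3 pool pairs (limma's moderated test, two-sided, Benjamini-Hochberg over all detected probes), with 1 estimate of spread shared by the areas. The background share of probes called was 0.308% for the nucleus accumbens, 0.0974% for the prefrontal arrays, 0.273% for the hippocampus and 3.03% for the mean of the areas, so that 0 of 14 probes lay near the background in each area. No probe of any gene was called in the 3 differences between areas (0%).

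At an unadjusted p under 0.05, 4 of 14 member probes passed in the nucleus accumbens, all negative, where 17.1% of all probes passed and 9.31% were negative. They were the probe pairs of only 2 genes, Grm5 and Grm3, and are not independent. The probes of a pair correlated at 0.94 (Grm5) and 0.93 (Grm3) over the 9 pool-pair ratios. None of 14 passed on the prefrontal arrays (8.97% of all probes), 1 did in the hippocampus with a positive ratio (7.04% of all probes, 3.53% positive) and 1 in the mean of the areas with a negative one (18.6%, 9.88% negative). For the differences between areas, 2 of 14 passed between nucleus accumbens and prefrontal medial cortex (3.64%, 2.17% negative) and 4 between nucleus accumbens and hippocampus (9.33%, 4.78% negative), all of them negative. The former were the Grm5 probes and the latter the probes of Grm5 and Grm3. Between the prefrontal medial cortex and the hippocampus 0 passed (4.04%). In simulated data of the same design, 28377 probes were drawn around 0 with independent noise of each probe's own spread. Of these, 100 were given a change of 0.5 log2 units in the nucleus accumbens and 100 a change of 1 unit. The fit recovered 71% and 94% of them. The shares are averages over probes and need not hold for a member. The simulated noise was independent between probes, whereas marker lists shifted together within real pool pairs. The shares therefore do not give the power of the real test. In the real data the dimmer Grm5 probe, at -0.46 with a moderated SE of 0.081 in the nucleus accumbens, was not called. The members' moderated SE in the nucleus accumbens ran from 0.052 (dimmer Grm7) to 0.31 (dimmer Homer1). The median ratio over the 9 genes, by the brighter probe, was -0.14 in the nucleus accumbens (7 genes negative, 2 positive), -0.011 in the prefrontal medial cortex and 0.0036 in the hippocampus, against medians over all probes of 8.9e-04, 0.0015 and -0.0029.

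**Figure D1:**
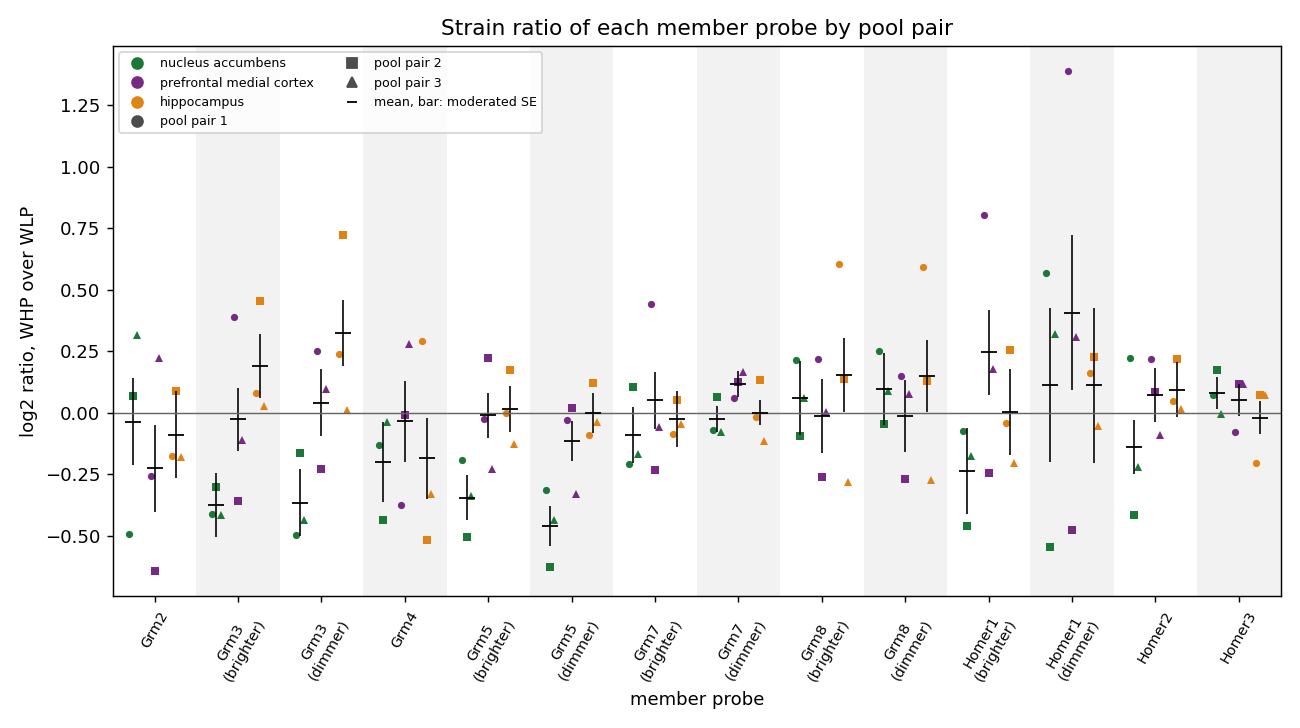
The log2 ratio of WHP over WLP is plotted for each of the 14 member probes, with 1 point per pool pair (shape), coloured by brain area, and the area mean with its moderated SE in black. The Grm5 and Grm3 points of the nucleus accumbens all lie below 0, while the prefrontal Homer1 points spread from -0.48 to 1.39.

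Grm5, the group I receptor of the set, had the lowest p-values of the members, with less signal in WHP in the nucleus accumbens. Its dimmer probe had log2 levels of 7.77, 7.38 and 7.41 in the WHP pools of pairs 1 to 3 and 8.08, 8.004 and 7.85 in the WLP pools, so that no WHP pool reached a WLP pool. Its brighter probe read 7.70, 7.50 and 7.34 in WHP and 7.89, 8.001 and 7.67 in WLP, where the ranges overlapped. Every pair had the same sign with both probes, as 15% of all probes had for negative ratios in this area. The share of all probes whose WHP and WLP pools do not overlap was not counted, so nothing is drawn from this trait.

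The ratio of the dimmer Grm5 probe was -0.31, -0.63 and -0.43 over the 3 nucleus accumbens pairs, a mean of -0.46 ± 0.081 (moderated SE, n = 3) or 1.37-fold more in WLP, with a 95% confidence interval of -0.64 to -0.27 and a limma adjusted p of 0.067. That of the brighter probe was -0.19, -0.50 and -0.34, with a mean of -0.34 ± 0.092, a 95% confidence interval of -0.55 to -0.13 and a limma adjusted p of 0.15. Both probes were negative on 6 of 6 nucleus accumbens arrays, in either dye orientation. On the scanner's own processed signals the means were -0.90 and -0.66 (limma adjusted p = 0.068 and 0.27), and in the authors' deposited ratios -0.71 and -0.55 (0.085 and 0.18). The dimmer probe passed the test in the nucleus accumbens in 2 of 22 alternative fits, without background subtraction (limma adjusted p = 0.044) and without nucleus accumbens pair 1 (0.036). Over its 22 alternatives the adjusted p ran from 0.036 to 0.39.

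Outside the nucleus accumbens the Grm5 ratios did not keep a sign over the pairs. The dimmer probe gave -0.028, 0.021 and -0.33 in the prefrontal pairs, of which pair 3 was more negative than nucleus accumbens pair 1, and was negative on 5 of 6 prefrontal arrays. The brighter probe gave -0.026, 0.22 and -0.23 there. In the hippocampus the ratios were -0.089, 0.12 and -0.036 with the dimmer probe and 0.0011, 0.17 and -0.13 with the brighter. Over the prefrontal pairs the brighter probe averaged -0.011 (95% interval -0.22 to 0.20) and the dimmer -0.11 (-0.30 to 0.073), and over the hippocampal pairs they averaged 0.016 (-0.19 to 0.23) and -0.0016 (-0.19 to 0.18). With the dimmer probe the difference in ratio was -0.35 between nucleus accumbens and prefrontal medial cortex and -0.46 between nucleus accumbens and hippocampus (95% intervals -0.61 to -0.084 and -0.72 to -0.19), and neither difference passed the test (limma adjusted p = 0.9997 and 0.52). In the mean of the areas the dimmer probe stood at -0.19 ± 0.047 with a limma adjusted p of 0.073, and it passed in 3 alternatives: without background subtraction, without nucleus accumbens pair 1 and on the arrays with WHP in Cy3 alone (-0.23, -0.22 and -0.20).

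Striatal projection neurons express Grm5, and their markers had mostly the same sign in these pools. Of 11 striatal markers tested, 10 were negative in the nucleus accumbens and 0 were called, with medians of -0.22, -0.81 and 0.013 in pairs 1 to 3. The mean log2 level of the list was 9.94 to 10.996 in the WHP pools and 10.71 to 11.21 in the WLP pools. Grm5 and the marker median were both lowest in pair 2, and in pair 3 Grm5 was at -0.34 and -0.43 where the markers were near 0. Pair 3 is the nucleus accumbens pair whose dye-swapped arrays did not correlate overall. Its arrays gave -0.71 and -0.16 with the dimmer Grm5 probe and -0.54 and -0.13 with the brighter. The part of the striatal markers in the Grm5 ratio was not tested. In pooled tissue fewer cells of a type and less RNA per cell cannot be told apart.

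**Figure D2:**
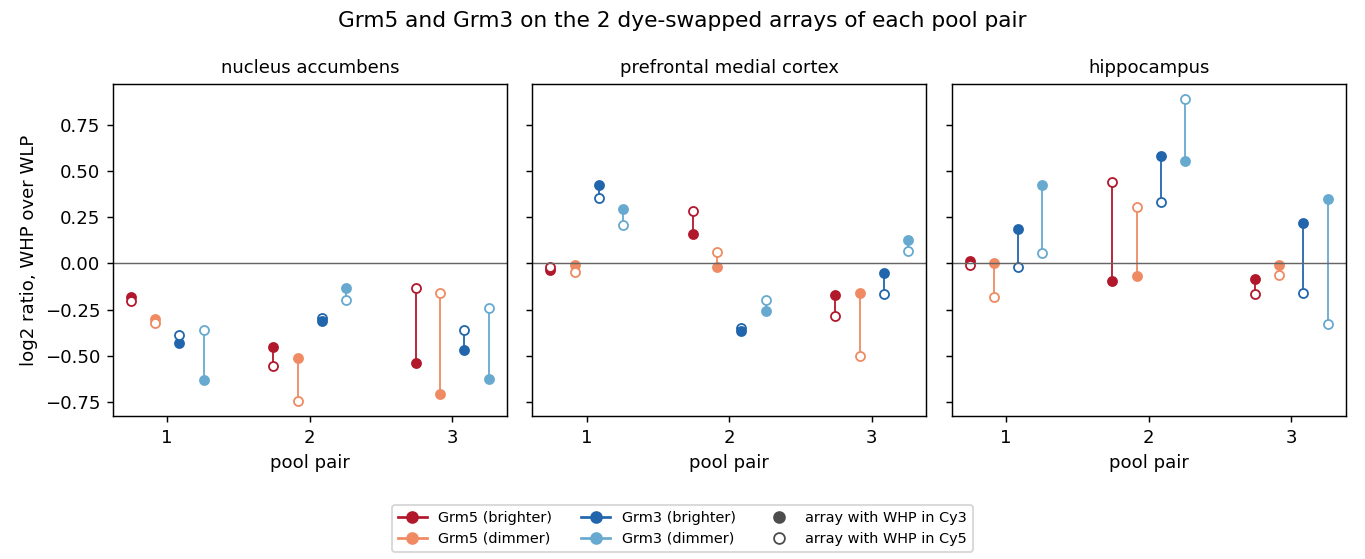
Each point is the log2 ratio of WHP over WLP of 1 array for the probes of Grm5 and Grm3, by pool pair and brain area, filled where WHP was in Cy3 and open where it was in Cy5, with a line joining the dye-swapped arrays. In the nucleus accumbens all points are negative, from -0.75 to -0.13, and in the other areas they lie on both sides of 0.

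Grm3, a group II receptor found on glia as well as on neurons, also gave less WHP signal in the nucleus accumbens with both probes that carry its symbol, though neither passed the test. The brighter probe read 12.73, 12.53 and 12.60 in the WHP pools and 13.14, 12.83 and 13.01 in the WLP pools, and the dimmer read 10.67, 10.70 and 10.49 against 11.17, 10.87 and 10.93. The pools of the strains did not overlap with either probe. The share of this trait among all probes was not counted, so nothing is drawn from it. All 3 pairs were negative with both probes, as in 15% of all probes. The ratios were -0.41, -0.30 and -0.41 (mean -0.38 ± 0.13, 1.30-fold more in WLP) and -0.50, -0.16 and -0.43 (mean -0.37 ± 0.14, 1.29-fold), with 95% intervals of -0.67 to -0.079 and -0.68 to -0.055 and limma adjusted p of 0.22 and 0.24. Both probes were negative on 6 of 6 arrays, and neither passed adjustment in any alternative.

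In the hippocampus the Grm3 ratios had the opposite sign in all 3 pairs with both probes, where 17.2% of all probes were so. They were 0.083, 0.46 and 0.029 with the brighter probe and 0.24, 0.72 and 0.010 with the dimmer. The mean of the dimmer, 0.32 ± 0.14, had a 95% interval of 0.015 to 0.63 and a limma adjusted p of 0.68. The brighter probe was negative on 2 of 6 arrays and the dimmer on 1 of 6. In pair 3 the dye-swapped arrays differed in sign with both probes. The largest value came from pair 2, the pair whose dye-swapped arrays did not correlate overall. The difference between nucleus accumbens and hippocampus was -0.56 ± 0.18 and -0.69 ± 0.19 (limma adjusted p = 0.52 for both). In the prefrontal medial cortex the pairs disagreed in sign, at 0.39, -0.36 and -0.11 with the brighter probe and 0.25, -0.23 and 0.098 with the dimmer.

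Glial markers were read beside Grm3. Of 9 astrocyte markers 7 were negative in the nucleus accumbens (median -0.11) and 6 were positive in the hippocampus (median 0.078), with mean list levels of 11.91 to 12.17 in WHP and 12.18 to 12.21 in WLP in the nucleus accumbens and 12.09 to 12.14 against 12.002 to 12.13 in the hippocampus. All 8 oligodendrocyte markers were positive in the hippocampus (median 0.42, pairs at 0.37, 0.57 and 0.20), with mean list levels of 12.34 to 12.41 in WHP and 11.84 to 12.15 in WLP, and 7 of 8 were negative in the nucleus accumbens (median -0.16, pairs at -0.54, 0.27 and -0.30). The nucleus accumbens pair 2 of these markers was thus positive where both Grm3 probes were negative. In prefrontal pairs 1 to 3 the astrocyte medians were -0.28, -0.12 and -0.14, and the oligodendrocyte medians -0.83, 0.46 and 0.33. Both Grm3 probes were positive in prefrontal pair 1 and negative in pair 2, opposite to the oligodendrocyte medians. No astrocyte or oligodendrocyte marker was called, and their part in the Grm3 ratios was not tested.

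Grm2, the other group II receptor and mainly a presynaptic one, did not keep a sign within any area. Its ratios were -0.49, 0.069 and 0.32 in the nucleus accumbens, -0.26, -0.64 and 0.22 in the prefrontal medial cortex and -0.18, 0.090 and -0.18 in the hippocampus. The area means of -0.036, -0.23 and -0.089 had 95% intervals that ran from -0.44 to 0.37, -0.63 to 0.18 and -0.49 to 0.31.

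Of the group III receptors, Grm4 was negative in all 3 nucleus accumbens pairs, as were 15% of all probes, and did not pass the test. Its ratios there were -0.13, -0.43 and -0.038, negative on 6 of 6 arrays. The mean was -0.20 (95% interval -0.58 to 0.17, limma adjusted p = 0.56). In the prefrontal medial cortex they were -0.37, -0.0090 and 0.28, and in the hippocampus 0.29, -0.52 and -0.33. The prefrontal and hippocampal pairs thus lay on both sides of 0.

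The Grm7 probes gave unlike ratios. Those of the dimmer probe ran from -0.11 to 0.17 over the 9 pairs, with prefrontal ratios of 0.061, 0.13 and 0.17, positive in all 3 pairs as were 14.3% of all probes (mean 0.12 ± 0.052, limma adjusted p = 0.56). The brighter probe, of the b variant, gave -0.21, 0.10 and -0.17 in the nucleus accumbens, 0.44, -0.23 and -0.057 in the prefrontal medial cortex and -0.086, 0.053 and -0.045 in the hippocampus. Its ratio followed the dye: with WHP in Cy3 the means were -0.38 in the nucleus accumbens, -0.26 in the prefrontal medial cortex and -0.19 in the hippocampus, and with WHP in Cy5 they were 0.20, 0.36 and 0.13 in the same order. The probes of Grm7 correlated at only 0.24 over the 9 pool-pair ratios.

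Grm8 gave nearly the same ratios with both probes, which share 18 bases. In the nucleus accumbens they were 0.21, -0.096 and 0.060 with the brighter (subtype b) probe, in the prefrontal medial cortex 0.22, -0.26 and 0.0027, and in the hippocampus 0.61, 0.14 and -0.28. The hippocampal mean of 0.15 had a 95% interval of -0.19 to 0.50, and the 3 pairs did not share a sign in any area.

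Homer1, which exists in long scaffolding forms and a short activity-induced form, had, with its dimmer probe, the widest spread between pool pairs of all member probes. That probe gave 1.39, -0.48 and 0.31 in the prefrontal pairs, 0.57, -0.55 and 0.32 in the nucleus accumbens and 0.16, 0.23 and -0.054 in the hippocampus. The brighter probe gave 0.80, -0.24 and 0.18, then -0.075, -0.46 and -0.17, then -0.040, 0.26 and -0.21. Prefrontal pair 1 was highest and pair 2 lowest with both probes. The prefrontal means of 0.41 ± 0.31 and 0.25 ± 0.17 (limma adjusted p = 0.78 and 0.75) were -0.084 and -0.033 without pair 1.

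Other immediate early genes had their highest prefrontal ratios in pair 1 and their lowest in pair 2, as Homer1 did. In prefrontal pair 3 their median was negative where both Homer1 probes were positive. Over 14 such genes, a list chosen after values of these data had been seen, the median ratio was 0.65, -0.75 and -0.29 in the prefrontal pairs, 0.048, -0.71 and -0.18 in the nucleus accumbens and -0.22, 0.13 and -0.31 in the hippocampus. Cortical excitatory markers gave medians of 0.55, -0.57 and -0.041 in the prefrontal pairs and striatal markers -0.88, 0.35 and 0.40. The markers of cortex and striatum thus stood on opposite sides in pairs 1 and 2, and their part in the Homer1 ratios was not tested.

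**Figure D3:**
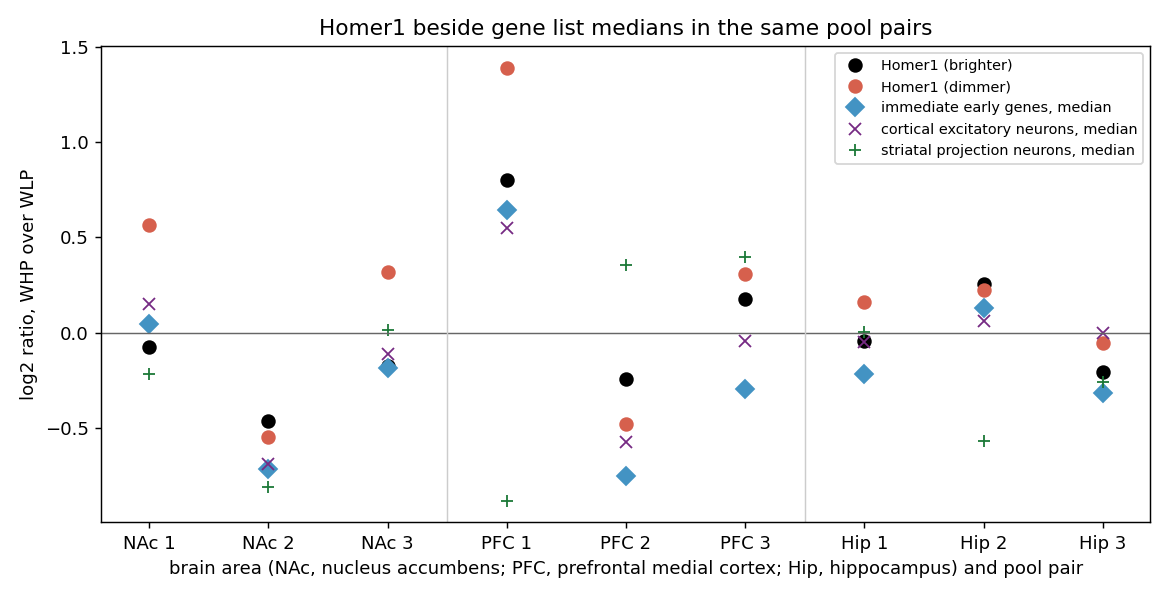
The log2 ratios of WHP over WLP of both Homer1 probes are plotted for each of the 9 pool pairs beside the medians of the immediate early genes, cortical excitatory markers and striatal projection neuron markers. In prefrontal pair 1 the Homer1 probes stand at 0.80 and 1.39 with the immediate early genes at 0.65 and the striatal markers at -0.88. In prefrontal pair 2 Homer1 and the immediate early genes are below 0. In prefrontal pair 3 the Homer1 probes stand at 0.18 and 0.31 and the immediate early genes at -0.29.

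Homer2 and Homer3, the remaining scaffold genes, had ratios nearer 0. Homer2 gave 0.22, -0.42 and -0.22 in the nucleus accumbens (mean -0.14, 95% interval -0.39 to 0.11), 0.22, 0.085 and -0.090 in the prefrontal medial cortex and 0.049, 0.22 and 0.015 in the hippocampus, where it was positive in 3 of 3 pairs, as were 17.2% of all probes. Homer3 gave 0.072, 0.17 and -0.0029 in the nucleus accumbens, with a mean of 0.081 (95% interval -0.070 to 0.23). In the prefrontal medial cortex it gave -0.076, 0.12 and 0.12 and in the hippocampus -0.20, 0.073 and 0.073, with means of 0.052 and -0.019.

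Most members were called between brain areas. The level test compared the log2 level of the 9 pool pairs, averaged over strains, between areas in the same way. By the brighter probe, 5 of 9 genes differed between nucleus accumbens and prefrontal medial cortex (4 lower and 1 higher in the nucleus accumbens), where 50.7% of all probes were called (24.4% lower, 26.3% higher). Between nucleus accumbens and hippocampus 7 of 9 differed (4 higher, 3 lower in the nucleus accumbens), against 74% of all probes (35.5% higher, 38.4% lower), and between prefrontal medial cortex and hippocampus 7 of 9 (6 higher, 1 lower in the prefrontal arrays), against 70.9% (33% higher, 37.9% lower). The totals are close to the background. By direction, the genes lower in the nucleus accumbens than in the prefrontal arrays, and those higher in the prefrontal arrays than in the hippocampus, were a larger share than among all probes, which was not tested. The hippocampal comparisons cannot be told apart from the scan session.

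The scaling of the arrays matters for these counts. Without equalising intensity between arrays the gene counts were 1, 5 and 3, and the share of all probes called was 5.89%, 40.4% and 41.5%. The split of calls between higher and lower in the nucleus accumbens against the prefrontal arrays was 51.9% higher in the main scaling, 62.5% without equalising and 38.7% on the scanner's processed signals, where the gene counts were 7, 6 and 7. Against the hippocampus it was 48%, 40.4% and 37.2%, and the processed signals moved the median difference of all probes to -0.23 there and to -0.14 for prefrontal against hippocampus.

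**Figure D4:**
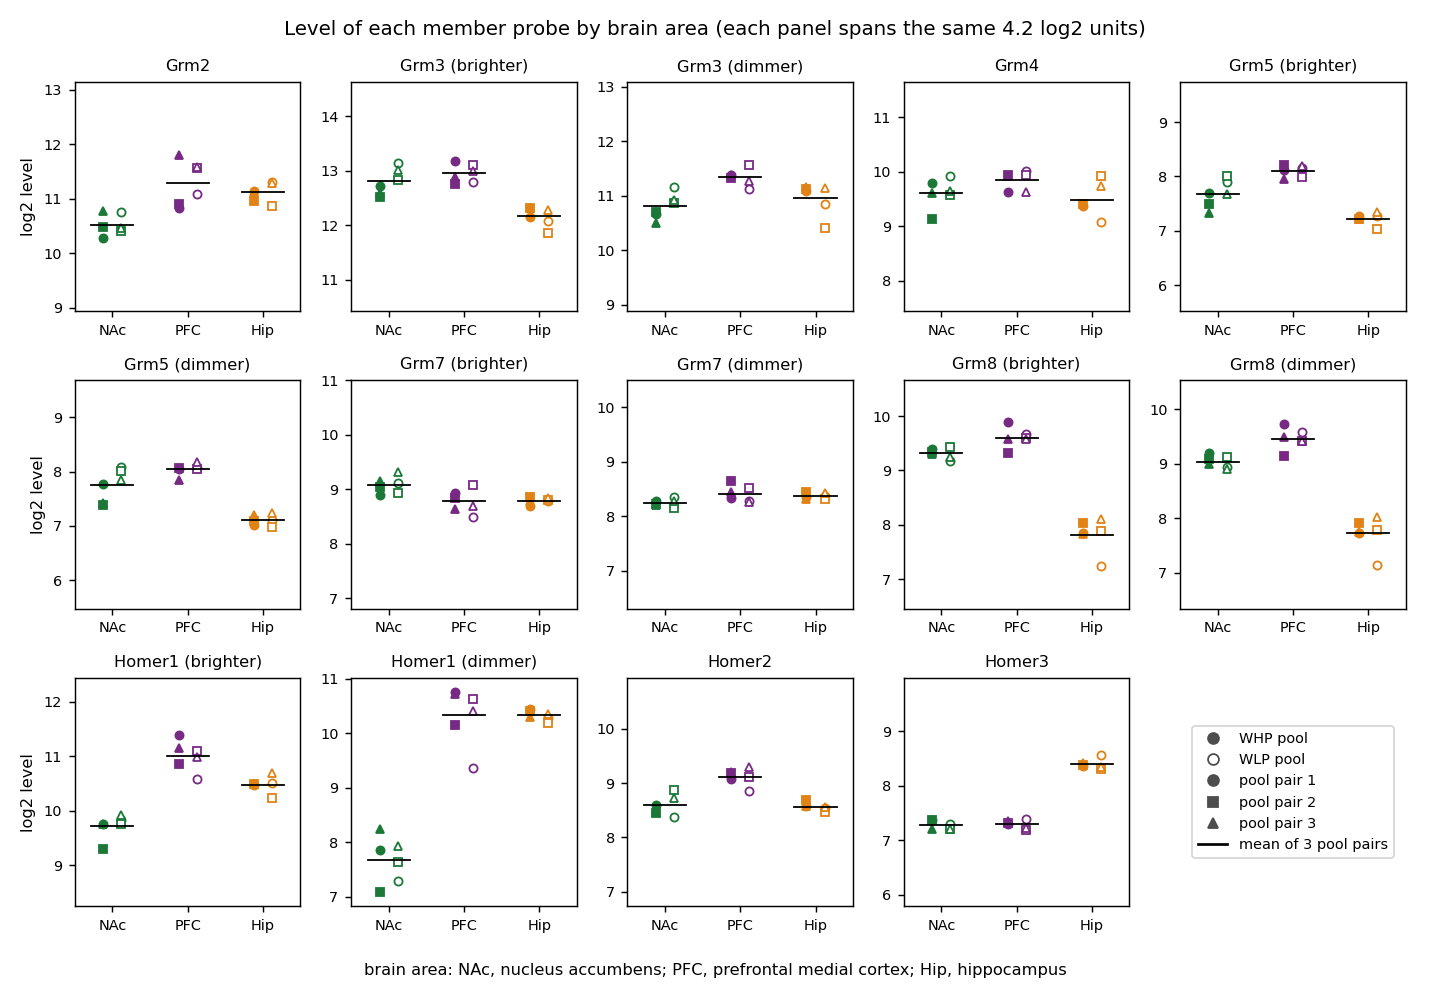
The log2 level of each member probe is plotted by brain area, with filled points for WHP pools, open points for WLP pools, a shape for each pool pair and a line at the area mean. The dimmer Homer1 probe lies at 7.67 in the nucleus accumbens against 10.34 and 10.33 in the other areas, the Grm8 probes are lowest and Homer3 is highest in the hippocampus.

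**Figure D5:**
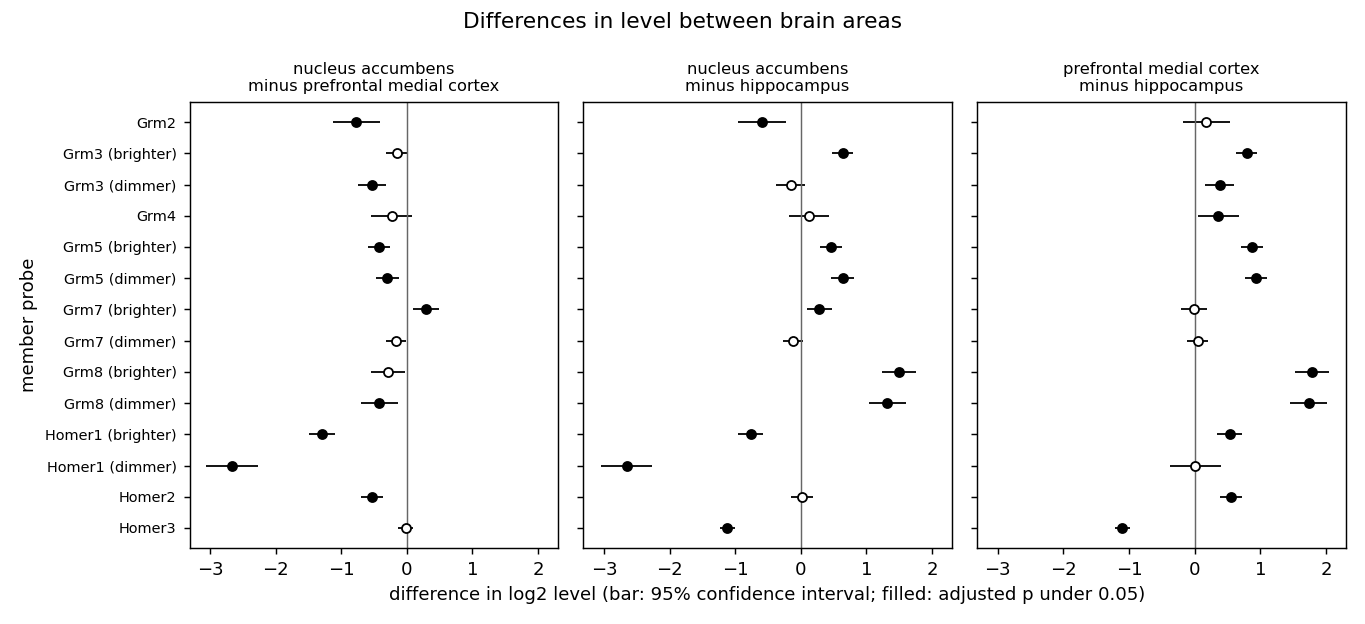
Differences in log2 level between brain areas are plotted for each member probe with 95% confidence intervals, filled where the adjusted p was under 0.05. The dimmer Homer1 probe has the largest difference, -2.67 between nucleus accumbens and prefrontal medial cortex, and the Grm3 and Grm7 probe pairs fall on different sides of 0 for nucleus accumbens against hippocampus.

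Homer1 had the largest difference between areas of the members, with less signal in the nucleus accumbens. Its dimmer probe read 7.58, 7.36 and 8.09 in the nucleus accumbens pairs, 10.06, 10.40 and 10.57 in the prefrontal pairs and 10.36, 10.30 and 10.33 in the hippocampus. The nucleus accumbens lay 2.67 ± 0.17 log2 units lower than the prefrontal medial cortex (-2.67, 6.34-fold, limma adjusted p = 6.7e-06), within the same scan session and slides. Prefrontal medial cortex and hippocampus differed by 0.010 (95% interval -0.38 to 0.40).

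The brighter Homer1 probe showed a smaller step in the same direction. It read 9.78, 9.52 and 9.84 in the nucleus accumbens, 10.98, 10.98 and 11.07 in the prefrontal medial cortex and 10.48, 10.35 and 10.60 in the hippocampus. The nucleus accumbens was 2.45-fold below the prefrontal medial cortex (-1.29 ± 0.086, limma adjusted p = 7.2e-06). Both probes kept this call without equalising the arrays (-2.50 and -1.15, limma adjusted p = 0.0042 and 0.021). The immediate early genes stood the same way, with 13 of 14 called lower in the nucleus accumbens than in the prefrontal arrays (median -1.44), against 24.4% of all probes.

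Homer2 was lower in the nucleus accumbens than in the prefrontal medial cortex and Homer3 was highest in the hippocampus. Homer2 read 8.48, 8.66 and 8.62 in the nucleus accumbens, 8.96, 9.15 and 9.25 in the prefrontal medial cortex (-0.53 ± 0.072, limma adjusted p = 2.8e-04) and 8.56, 8.58 and 8.56 in the hippocampus. Without equalising the arrays that call was lost (-0.48, limma adjusted p = 0.22). Homer3 read 7.34, 7.29 and 7.20 in the nucleus accumbens and 7.34, 7.25 and 7.29 in the prefrontal medial cortex, and these did not differ (-0.017, limma adjusted p = 0.80). In the hippocampus it read 8.47, 8.35 and 8.38, which was 2.18-fold above the nucleus accumbens and 2.15-fold above the prefrontal medial cortex. This step cannot be told apart from the scan session.

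Grm5 read highest in the prefrontal medial cortex, then the nucleus accumbens, then the hippocampus, and neighbouring areas in this order differed with both probes. The place of the hippocampus cannot be told apart from the scan session and slides. The brighter probe read 7.80, 7.75 and 7.50 in the nucleus accumbens, 8.14, 8.11 and 8.07 in the prefrontal medial cortex and 7.27, 7.13 and 7.29 in the hippocampus. The nucleus accumbens lay below the prefrontal medial cortex by -0.42 ± 0.076 with the brighter and -0.30 ± 0.077 with the dimmer probe (limma adjusted p = 0.0013 and 0.0096). In the WLP pools alone neither difference was called (-0.26 and -0.12, limma adjusted p = 0.073 and 0.25), nor without equalising the arrays (-0.38 and -0.27, limma adjusted p = 0.14 and 0.30).

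The group II receptors ran in different orders. Grm2 read 10.52, 10.44 and 10.61 in the nucleus accumbens, 10.95, 11.23 and 11.69 in the prefrontal medial cortex and 11.22, 10.92 and 11.21 in the hippocampus, so the nucleus accumbens was lowest (-0.77 ± 0.16 against prefrontal, limma adjusted p = 0.0032) and the other areas did not differ (0.18, limma adjusted p = 0.35). The Grm2 difference between nucleus accumbens and prefrontal arrays was not called without equalising the arrays (-0.65, limma adjusted p = 0.32). It was also not called in WHP pools alone (-0.67, limma adjusted p = 0.052).

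The brighter Grm3 probe read 12.94, 12.68 and 12.81 in the nucleus accumbens, 13.00, 12.93 and 12.95 in the prefrontal medial cortex and 12.11, 12.09 and 12.30 in the hippocampus. The dimmer Grm3 probe read 10.92, 10.79 and 10.71, then 11.24, 11.44 and 11.33, then 10.96, 10.76 and 11.15. The probes disagreed on nucleus accumbens against hippocampus, at 0.64 ± 0.073 (limma adjusted p = 2.9e-05) and -0.15 ± 0.097 (0.17). They correlated at 0.53 over the 18 pool levels although their strain ratios correlated at 0.93. Without equalising the arrays the brighter probe was not called against the hippocampus (0.13 from the nucleus accumbens and 0.16 from the prefrontal medial cortex, limma adjusted p = 0.68 and 0.57), and the dimmer probe's prefrontal difference of 0.38 was -0.15.

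Among group III receptors Grm8 had the largest differences, with the lowest level in the hippocampus. Its brighter probe read 9.28, 9.38 and 9.28 in the nucleus accumbens, 9.78, 9.46 and 9.58 in the prefrontal medial cortex and 7.54, 7.96 and 7.97 in the hippocampus. The hippocampus was 2.82-fold below the nucleus accumbens (1.49 ± 0.12, limma adjusted p = 2.2e-06) and 3.44-fold below the prefrontal medial cortex (1.78 ± 0.12, limma adjusted p = 1.1e-06). Both differences cannot be told apart from the scan session. Nucleus accumbens and prefrontal arrays differed by -0.29 with the brighter probe (limma adjusted p = 0.063) and by -0.42 with the dimmer (0.019). The dimmer probe's call was lost without nucleus accumbens pair 3, without prefrontal pair 1 and without prefrontal pair 3 (limma adjusted p = 0.056, 0.069 and 0.050), and without equalising the arrays (-0.32, limma adjusted p = 0.34).

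Grm4 and Grm7 had the smallest level differences of the receptors. Grm4 read 9.86, 9.35 and 9.63 in the nucleus accumbens, 9.82, 9.94 and 9.78 in the prefrontal medial cortex and 9.22, 9.66 and 9.57 in the hippocampus. Its single call, prefrontal above hippocampus (0.36 ± 0.14, limma adjusted p = 0.037), was lost without any of the 3 prefrontal pairs (0.070, 0.11 and 0.056), without hippocampus pair 1 (0.14) and without hippocampus pair 3 (0.051). It was also not called in WLP pools alone (0.29, limma adjusted p = 0.23), and without equalising the arrays the difference was 0.0074 (limma adjusted p = 0.98).

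The brighter Grm7 probe read 9.00, 8.98 and 9.23 in the nucleus accumbens, 8.71, 8.95 and 8.66 in the prefrontal medial cortex and 8.73, 8.82 and 8.81 in the hippocampus, and so was higher in the nucleus accumbens (0.30 ± 0.087 against prefrontal, limma adjusted p = 0.018). The dimmer Grm7 probe read 8.25, 8.41 and 8.37 on average in the 3 areas and was called in no comparison. The brighter probe's difference from the prefrontal arrays was not called without nucleus accumbens pair 3 (limma adjusted p = 0.055), prefrontal pair 1 (0.060) or prefrontal pair 3 (0.072), nor without equalising the arrays (0.32, limma adjusted p = 0.35) or on the scanner's processed signals (0.15, limma adjusted p = 0.39). Its difference from the hippocampus (0.29, limma adjusted p = 0.014) was not called there either (0.19, 0.24). The probes correlated at -0.14 over the 18 pool levels.

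The genes whose level followed each member most closely over the 18 pools differed from member to member. These correlations describe mainly the steps between areas and carry no test. The WHP and WLP pools of a pair share their arrays, same-numbered nucleus accumbens and prefrontal pairs share a slide, and the hippocampal pools share a scan session. They were highest for Homer3 (Or51f5, Olr1633 and Tuba8, each at 0.99), Grm8 (Fxyd6 at 0.98, Tpbg at 0.98 and Gfra2 at 0.97), Homer1 (Etv5, Cck and Cacnb1, each at 0.97) and Grm5 (Cspg5 and Zfp763 at 0.97, Ehmt1 at 0.96). Grm3 was followed by Septin7 and Ptprs (0.95 each), and Homer2 by Lonrf1, Pcdh8 and Polr1d (0.94 each). Grm2 was followed by Map3k12 and Zmat4 (0.89 each), Grm7 by Rbm33 (0.89), Abcc5 and Spopl, and Grm4 least closely, by Tmem41a (0.81), Neu2 and Impa2.

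Grm6, a group III receptor known from the retina and outside the member list, had ratios of -0.17, 0.33 and 0.43 in the nucleus accumbens and was not called in any area.

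No gene of the 6 pathway lists was called between the strains in any single area. The Homer-bound and postsynaptic scaffold list, which includes the Shank and Dlgap families and calcium release channels, had 16 of 19 members negative in the nucleus accumbens (median -0.16), 14 in the prefrontal medial cortex (-0.052) and 15 in the hippocampus (-0.022). By pair its medians were 0.027, -0.27 and -0.18 in the nucleus accumbens and 0.095, -0.22 and -0.058 on the prefrontal arrays, so pair 1 had the opposite sign in both areas. Cortical excitatory markers had the same signs, with medians of 0.15, -0.69 and -0.11, then 0.55, -0.57 and -0.041. The immediate early genes also had these signs, and the striatal markers did not. The part of these markers in the list medians was not tested. The Gq arm, from Gnaq and phospholipase C to protein kinase C, had 15 of 19 negative in the nucleus accumbens (median -0.13, pairs at 0.064, -0.21 and -0.18) and medians of 0.030 and 0.0011 elsewhere. The Gi/o arm had 14 of 26 negative there (median -0.020), the receptor partner proteins 8 of 13 (-0.064), and a mixed list 9 of 15 (-0.024). The mixed list holds genes of glutamate and N-acetylaspartylglutamate supply and clearance together with Grk2, Arrb1 and Arrb2, which desensitise receptors. The median over all probes was 8.9e-04 in the nucleus accumbens, 0.0015 in the prefrontal medial cortex and -0.0029 in the hippocampus.

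In the mean of the areas 3 of these genes were lower in WHP and 0 higher, against 1.62% and 1.42% of all probes. The lists held 2, 13, 19, 19, 26 and 15 measured genes, so that the total lay near the background share of 3.03%. Each of the 3 calls was lost in most alternatives. Adcy5, the adenylyl cyclase typical of striatal neurons, had ratios of -0.70, -0.52 and -0.47 in the nucleus accumbens, -0.51, -0.019 and 0.11 in the prefrontal medial cortex and -0.12, -0.36 and -0.20 in the hippocampus, with a mean of -0.31 ± 0.062 and a limma adjusted p of 0.037. Grk2, a kinase that desensitises receptors, was negative in 9 of 9 pairs (mean -0.17 ± 0.035, limma adjusted p = 0.041). Rimklb, an enzyme that makes N-acetylaspartylglutamate, a ligand of Grm3, was negative in 8 of 9 (mean -0.14 ± 0.029, limma adjusted p = 0.035). Adcy5 passed in 7 of 21 alternatives, Rimklb in 6 and Grk2 in 3, with adjusted p up to 0.35, 0.21 and 0.20, and none passed once pool pair number was fitted as a block (limma adjusted p = 0.058, 0.080 and 0.059). Leaving out a single pool pair took the call from Adcy5 in 7 of 9 cases (limma adjusted p up to 0.10), from Rimklb in 6 (up to 0.12) and from Grk2 in 7 (up to 0.13). The striatal markers, which Adcy5 accompanies in striatal tissue, had a median of -0.28 in the mean of the areas with 10 of 10 negative, and their part in the Adcy5 ratio was not tested.

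Between nucleus accumbens and prefrontal medial cortex the levels of the pathway lists had more lower than higher calls in 5 of 6 lists. Of 19 scaffold genes 13 were lower and 3 higher in the nucleus accumbens (median -0.55), among them Dlgap1 (-1.14), Shank3 (-0.88) and Shank2 (-0.86), which link Homer to the postsynaptic density, and, higher, the dynamin Dnm3 (0.54). Of 19 Gq genes 11 were lower and 2 higher (median -0.39), among them the diacylglycerol kinase Dgkz (-1.47) and the G protein regulator Rgs4 (-1.04). Of 13 partner proteins 6 were lower and 0 higher, of 26 Gi/o genes 7 were lower (Rgs14 at -1.26, Kcnj6 at -1.22) and 4 higher (Prkacb at 0.68), and of 15 genes of the mixed list 5 were lower, Grk2 and Arrb2 among them, and 2 higher (Slc17a6 and Arrb1). That list held the widest contrast, with the vesicular glutamate transporter Slc17a7, which marks cortical glutamate neurons, at -3.09 and its relative Slc17a6, typical of thalamic and other subcortical ones, at 1.69. Without equalising the arrays the calls of Shank2, Shank3, Rgs4, Dnm3, Prkacb and Arrb1 were lost (limma adjusted p = 0.10, 0.19, 0.099, 0.062, 0.055 and 0.32), and those of Dlgap1, Dgkz, Rgs14, Kcnj6, Slc17a6 and Slc17a7 were kept. Against these counts stand 24.4% of all probes called lower and 26.3% called higher in the nucleus accumbens, with a median over all probes of 0.013.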

How the data were processed

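Rat brain RNA from pools of 3 males of each strain was hybridised on 18 two-colour arrays. The authors deposited spot intensities (mean foreground and local background of both dyes) as scanner output of Agilent Feature Extraction 10.10.1.1, on build rn4, per the file headers. A value table, also deposited, holds a log2 ratio per probe and array whose normalization is not given in the sources used here. Its array medians lie between -0.011 and 0.021, and it correlates positively with the scanner's WHP over WLP ratio on every array (0.44 to 0.84). It served as an alternative only.

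Here, intensities were background-corrected (normexp, offset 50, which pulls ratios of dim spots towards 0) and loess-normalized within arrays with limma 3.58.1 in R 4.3.3. Levels were further equalised between arrays (Aquantile). Control spots and spots marked non-uniform were left out, spots of a probe and dye-swapped arrays were averaged, and the labelled dyes set the sign of each ratio (WHP over WLP). lmFit and eBayes used 1 coefficient per area (6 residual and 2.45 prior degrees of freedom for ratios), with Benjamini-Hochberg adjustment over detected probes at 0.05. The fits were tested on simulated data. The text names every member probe, pathway genes past the strain test, up to 3 pathway genes per list and direction by size of level difference, and up to 3 genes most alike each member; results for a few genes under these rules are not reported here. The members, lists and tests were chosen with earlier results of these data known. Alternatives (23 for ratios, 20 for levels) changed background correction, scaling, filter, dye orientation, areas fitted, blocks and the pairs included. The alternative without 2 poorly correlated pairs, and the alternatives for pathway genes, were chosen after seeing the data. Pool numbers were not used to pair the areas in the main fit.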

Additional observations from a re-analysis of the deposited data

Results flagged for a closer look

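The brighter Grm7 probe, described in the array file as the b variant, had a strain ratio of 0.44 in prefrontal pool pair 1 that stood apart from the other 8 pool pairs, the highest of which was 0.10. The gap made up 0.50 of the whole range of the 9 pairs, just above the critical share of Dixon's test. It was the 1 of 14 member probes that stood out in this way, and chance alone marks about 1 group in 20. The ratio of this probe also differed between dye orientations, as given with its values above.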

How the results depend on the processing

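By the brighter probe, the count of members called between strains was 0 in every area, in the mean and in the differences under every alternative run (up to 23). Of the level counts, that for nucleus accumbens against prefrontal medial cortex went from 5 of 9 genes to 3 in WLP pools alone and to 1 without equalising the arrays, where prefrontal against hippocampus went from 7 to 3. The level difference of the dimmer Grm3 probe between prefrontal medial cortex and hippocampus reversed from 0.38 to -0.15 without equalising (limma adjusted p = 0.63), and that of Eef2k between nucleus accumbens and prefrontal medial cortex from 0.18 to -0.092 on the scanner's processed signals. The cause was not tested. Among single probes, 5 ratio values newly passed the test under an alternative, all of the dimmer Grm5 probe. For member levels, 41 values lost and 18 gained a call.

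Same-numbered pools of different areas did not deviate together (correlations of -0.38 to 0.17 for ratios). With the replicate number as a block, no member probe was called between strains, and the level counts were 5, 7 and 6 genes. The block took the call from Grm4, prefrontal against hippocampus (0.36, limma adjusted p = 0.063), and from no other member probe. With slides as a random block (consensus correlation 0.049) the strain counts stayed at 0. The number of pool pairs, 3 per area, limits the precision.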
